A study of Homo sapiens with 30 samples.

Results

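Mitosis genes are those whose products build the spindle, hold and separate the chromosomes, drive the cell into and out of division, or mark dividing cells. The set described here holds 37 genes of 11963 tested. They were chosen by symbol from general knowledge of mitosis, with earlier results of these data known. Each is represented by the probe set (a group of array probes summarised as 1 value) with the highest mean over 30 arrays. All 37 were on the array, and all 37 had a mean above the median of the whole table.

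Expression was measured with Affymetrix arrays in small airway epithelial (SAE) cells, primary human cells that line the fine airways, from a commercial supplier. After detachment with trypsin and plating, the cells received multi-walled carbon nanotubes (MWCNT) or titanium dioxide nanobelts (TiO2, called TiO2-NB in the labels), or no particles, and were cultured for 1 or 24 h. The 10 groups were MWCNT at 10 and 100 ug/ml, TiO2 at 10 and 100 ug/ml and control cells at 0 ug/ml, each at 24 h and at 1 h, with 3 arrays per group labelled as biological replicates. Every group, controls included, had been detached and replated, so time with particles and time since plating cannot be told apart in a comparison of 24 h with 1 h. The labels do not say whether the replicates came from separate donors, so p-values measure only the spread between these cultures.

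Most mitosis genes are transcribed in a wave that peaks when cells prepare to divide, and their RNA is low in resting cells. Certain promoter letters recur in this family. The CCAAT box binds the factor NF-Y, and the cell cycle genes homology region (CHR) binds complexes that silence the genes in resting cells and activate them before division. In a bulk sample, fewer cells of a type and less RNA per cell cannot be told apart, and this applies to every value below.

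The promoter letters of 5 members are shown because these members include the largest change over time, the change seen with particles at 1 h, and members that did not pass the test over time. The sequences are the 150 bases before the gene start in RefSeq (GRCh38.p14), written 5′ to 3′ on the gene's own strand. Capitals mark CCAAT, its reverse complement ATTGG, and the CHR letters TTTGAA, while the other letters are in lower case. In MKI67, which encodes the proliferation marker Ki-67, one TTTGAA shares its last letter with the ATTGG that follows it. NCAPG encodes a condensin subunit and lies at chr4:17810829-17810978 on the plus strand. MKI67 lies at chr10:128126424-128126573 on the minus strand. KIF23, a kinesin of the central spindle, lies at chr15:69414199-69414348 on the plus strand. CCNB1, cyclin B1, lies at chr5:69167000-69167149, and PLK1, polo-like kinase 1, at chr16:23678739-23678888, both on the plus strand.
NCAPG: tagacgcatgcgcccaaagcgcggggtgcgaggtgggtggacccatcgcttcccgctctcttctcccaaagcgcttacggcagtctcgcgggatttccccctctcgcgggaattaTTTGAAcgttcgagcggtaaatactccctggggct
MKI67: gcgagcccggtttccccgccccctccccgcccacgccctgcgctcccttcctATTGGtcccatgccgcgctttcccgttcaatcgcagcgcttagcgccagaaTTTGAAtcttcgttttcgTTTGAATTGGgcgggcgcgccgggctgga
KIF23: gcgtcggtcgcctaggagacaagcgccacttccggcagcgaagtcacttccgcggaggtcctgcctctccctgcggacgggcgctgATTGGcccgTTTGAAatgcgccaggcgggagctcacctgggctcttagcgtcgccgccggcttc
CCNB1: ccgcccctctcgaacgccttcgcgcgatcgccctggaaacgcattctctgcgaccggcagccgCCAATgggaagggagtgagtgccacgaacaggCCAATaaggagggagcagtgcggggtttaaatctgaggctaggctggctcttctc
PLK1: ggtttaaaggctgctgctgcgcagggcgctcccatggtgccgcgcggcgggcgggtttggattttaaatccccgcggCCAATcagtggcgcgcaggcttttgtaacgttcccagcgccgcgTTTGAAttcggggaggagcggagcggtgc

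Of the 37 members, 31 had a promoter in the RefSeq table, each as 250 bases before and 50 bases after the gene start. TTTGAA or TTCGAA on either strand was present in 22 of the 31 (71.0%), against 16.6% of 27305 promoters of the same length. CCAAT on either strand was present in 24 of the 31 (77.4%), against 35.7% of all promoters. Both were present in 18 (58.1%), against 6.58%. NCAPG held TTTGAA without CCAAT in this window, and CCNB1 held CCAAT without TTTGAA or TTCGAA. No other letters were searched for as CHR letters. Among the 21 matched members that rose over time in control cells, 16 (76.2%) held the CHR letters, and among the 10 that did not pass there, 6 (60.0%) did. These are matches of letters and say nothing of binding.

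The array medians lay between 7.15 and 7.21 on the log2 scale, and the median of the table was 7.18. The median standard deviation (SD) within groups was 0.07 for the members and 0.10 for all genes. Across the members it lay between 0.03 (BIRC5, survivin) and 0.20 (CENPE, a kinetochore motor). The epithelial label was set against markers: in 1 h control cells KRT18 averaged 13.24, KRT8 12.01, ITGA6 8.79 and CDH1 8.03, while KRT14 averaged 4.03, KRT19 6.10 and EPCAM 7.05, below the table median. Of the marker lists, 5 of 8 epithelial, 0 of 3 secretory, 1 of 3 ciliated, 2 of 6 fibroblast, 1 of 4 immune, 0 of 3 endothelial and 1 of 3 alveolar genes were above the table median. KRT17 and TP63 were not measured by a probe set with 1 symbol.

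The change over time is given first for control cells, which held no particles. Between 24 h and 1 h, 24 of the 37 mitosis genes rose, none fell and 13 did not pass (limma, adjusted p under 0.05 over all genes). Over all genes the test gave 31.7% called, 19.3% higher and 12.4% lower, so the 64.9% of members that rose lay above the background. The median difference of the members was 0.27 (log2), against -0.011 for all genes. The rise was small in size: the largest, NCAPG, was 1.57-fold, and 23 others lay between 1.11-fold and 1.39-fold. When the fit held only the control arrays 18 members were called, and without any 1 of the 6 arrays between 20 and 24.

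**Figure D1:**
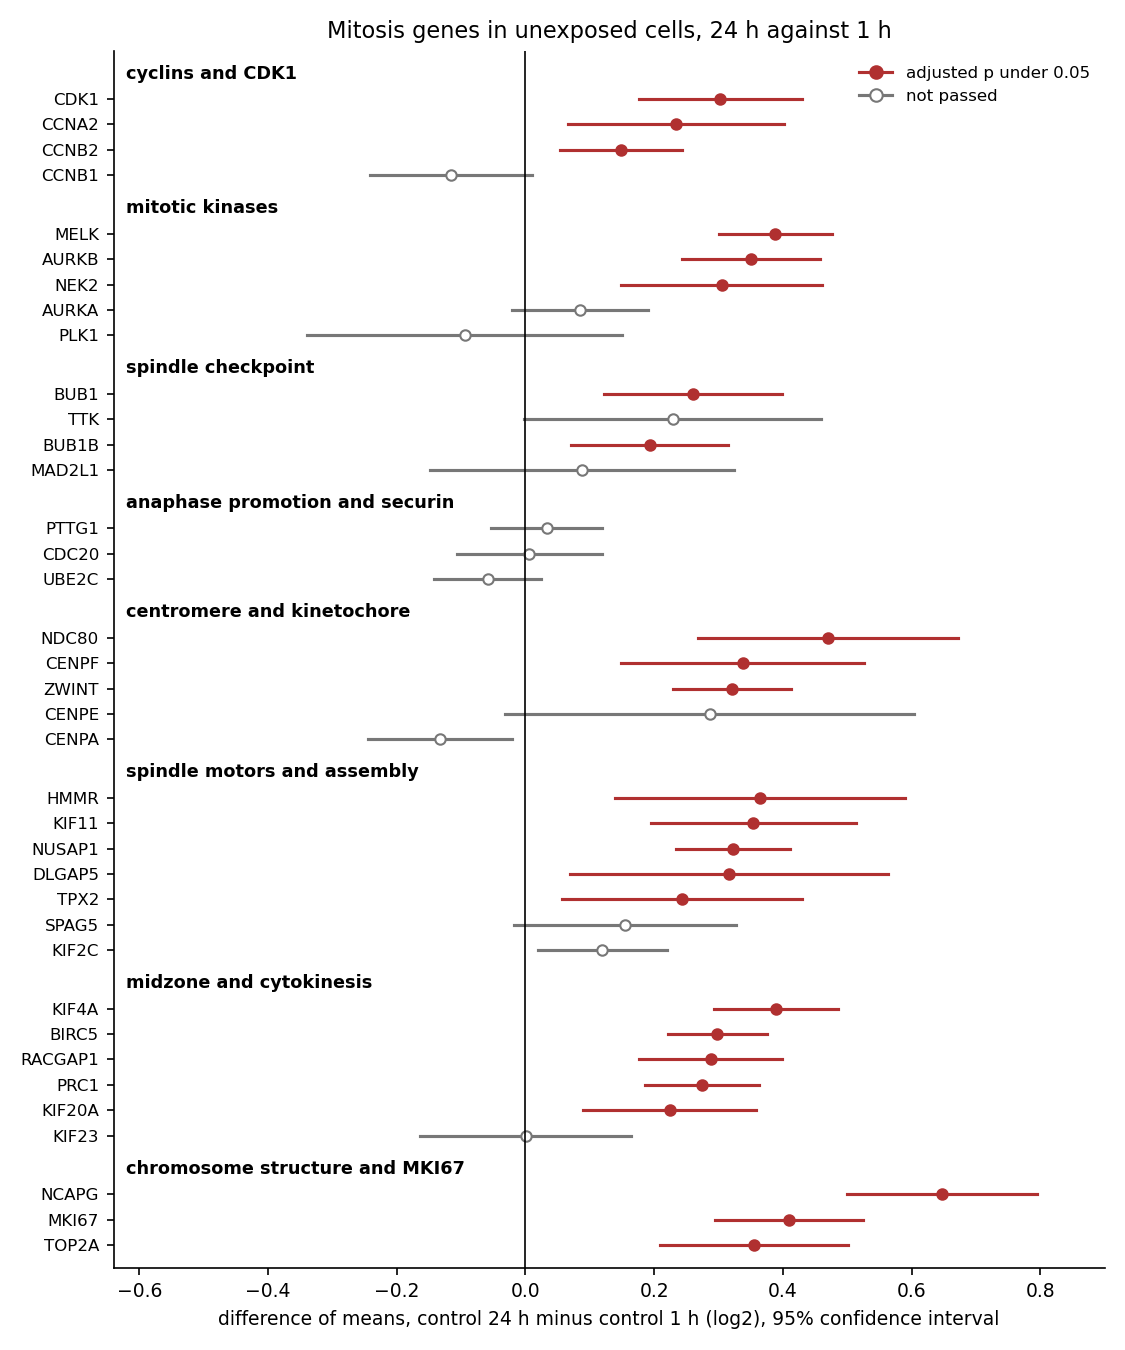
Difference of group means for each mitosis gene, control cells at 24 h minus control cells at 1 h, on the log2 scale, with 95% confidence intervals from limma (3 arrays per group). Filled red points passed an adjusted p of 0.05 and open grey points did not. The 3 genes of anaphase promotion and securin lie close to 0, while the 3 of chromosome structure and MKI67 all lie above 0.3.

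Genes of chromosome structure, with MKI67, all rose. NCAPG had 11.16, 11.21 and 11.18 in control cells at 24 h, against 10.40, 10.56 and 10.63 in control cells at 1 h. The groups did not overlap, and the difference was 0.65 ± 0.07 (SE; limma adjusted p = 1.35e-07). MKI67 had 10.37, 10.63 and 10.41 at 24 h, against 9.99, 10.08 and 10.11 at 1 h, without overlap, a difference of 0.41 ± 0.06 (limma adjusted p = 3.14e-06). Its 3 other probe sets gave smaller differences of 0.20, 0.27 and 0.22, of which the first did not pass over all probe sets (limma adjusted p = 0.087). TOP2A, the topoisomerase that untangles sister chromatids, had 11.97, 11.76 and 11.96 at 24 h, against 11.50, 11.62 and 11.50 at 1 h, and rose by 0.36 ± 0.07 (limma adjusted p = 0.000348). The other probe set of TOP2A differed by 1.24 ± 0.25 and that of NCAPG by 0.63 ± 0.07. Of the 22 other probe sets of 13 members, 16 lay above the table median, and in all 16 the difference had the same sign as in the probe set used, with a median of 0.22.

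Among the cyclins and their kinase, 3 of 4 rose. CDK1, the kinase that starts mitosis, had 12.32, 12.28 and 12.34 in control cells at 24 h, against 12.14, 11.85 and 12.04 at 1 h, with no overlap. It rose by 0.30 ± 0.06 (limma adjusted p = 0.00041). CCNA2 (cyclin A2) rose by 0.23 ± 0.08, although its arrays overlapped, and CCNB2 (cyclin B2) by 0.15 ± 0.05. CCNB1, the main partner of CDK1, went the other way in sign without passing. It had 11.823, 11.955 and 11.998 at 24 h, against 12.075, 11.97 and 12.078 at 1 h, overlapping groups with a difference of -0.12 ± 0.06 (limma adjusted p = 0.158).

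Of the 5 mitotic kinases, 3 rose. MELK (maternal embryonic leucine zipper kinase) had 12.15, 12.16 and 12.05 in control cells at 24 h, against 11.76, 11.70 and 11.73 at 1 h. The groups lay well apart, a difference of 0.39 ± 0.04 (limma adjusted p = 1.24e-07). AURKB, the kinase of the chromosomal passenger complex that corrects wrong spindle attachments, rose by 0.35 ± 0.05, and NEK2, a kinase of centrosome separation, by 0.30 ± 0.08. AURKA, which acts at the spindle poles, differed by 0.08 ± 0.05 (limma adjusted p = 0.222). PLK1, which acts from entry to cytokinesis, had 7.557, 8.345 and 7.953 at 24 h, against 8.002, 8.034 and 8.102 at 1 h. The arrays at 24 h lay on both sides of those at 1 h, and the difference of -0.09 had a 95% interval of -0.34 to 0.15.

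Spindle checkpoint genes, which delay anaphase until chromosomes are attached, were divided. BUB1 rose by 0.26 ± 0.07 and BUB1B by 0.19 ± 0.06. TTK, the kinase upstream of the checkpoint, differed by 0.23 ± 0.11 and did not pass (limma adjusted p = 0.125), although its arrays did not overlap. MAD2L1 differed by 0.09, with an interval of -0.15 to 0.32.

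None of the 3 genes of anaphase promotion and securin passed. CDC20, the activator of the anaphase promoting complex, had 11.52, 11.72 and 11.58 in control cells at 24 h, against 11.56, 11.63 and 11.62 at 1 h. Its groups overlapped, and the difference of 0.0061 had an interval of -0.11 to 0.12. The ubiquitin-conjugating enzyme UBE2C differed by -0.06 (interval -0.14 to 0.02) and securin, PTTG1, by 0.03 (interval -0.05 to 0.12). All 3 upper bounds lie below the median difference of the members.

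At the centromere and kinetochore, 3 of 5 rose. NDC80, which binds microtubules, had 10.72, 10.62 and 10.84 in control cells at 24 h, against 10.14, 10.23 and 10.40 at 1 h, without overlap, and rose by 0.47 ± 0.10 (limma adjusted p = 0.000546). CENPF rose by 0.34 ± 0.09 and ZWINT, a linker of the checkpoint to the kinetochore, by 0.32 ± 0.04. The control arrays of CENPF at 1 h stood at 10.10, 10.53 and 10.56. Its call held in 9 of 12 alternative settings, with differences down to 0.19, and that of ZWINT in 12 of 12. CENPE differed by 0.29 ± 0.15 (limma adjusted p = 0.167). CENPA, the histone variant that marks centromeres, differed by -0.13 ± 0.05, with all 3 arrays at 24 h below all 3 at 1 h, and did not pass (limma adjusted p = 0.0663).

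Spindle motors and assembly factors rose in 5 of 7 cases. KIF11, the motor that pushes the poles apart, had 10.51, 10.63 and 10.73 in control cells at 24 h, against 10.31, 10.22 and 10.28 at 1 h, and rose by 0.35 ± 0.08 (limma adjusted p = 0.000877). HMMR rose by 0.36 ± 0.11, NUSAP1 by 0.32 ± 0.04, DLGAP5 by 0.32 ± 0.12 and TPX2, which activates AURKA on spindles, by 0.24 ± 0.09, the last with overlapping arrays. The DLGAP5 call held in only 5 of 12 alternative settings (limma adjusted p up to 0.131). That of TPX2 held in 7 of 12, with differences down to 0.09 (limma adjusted p up to 0.392). KIF2C, a microtubule depolymerase, differed by 0.12 ± 0.05 (limma adjusted p = 0.064) and SPAG5 by 0.16 ± 0.08 (limma adjusted p = 0.168).

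Of the 6 genes of the midzone and cytokinesis, 5 rose. KIF4A, a motor that limits midzone length together with PRC1, had 10.76, 10.91 and 10.84 in control cells at 24 h, against 10.37, 10.48 and 10.50 at 1 h. The groups were apart by 0.39 ± 0.05 (limma adjusted p = 4.73e-07). PRC1, which bundles midzone microtubules, rose by 0.27 ± 0.04, BIRC5, a passenger complex subunit, by 0.30 ± 0.04, RACGAP1 by 0.29 ± 0.05 and KIF20A by 0.22 ± 0.07, the last with overlapping arrays. KIF23, the partner of RACGAP1 in the centralspindlin complex, stood at 10.49 ± 0.10 at 24 h and 10.48 ± 0.04 at 1 h (SD, n = 3 each), with an interval of -0.16 to 0.16 for the difference.

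Marker levels of cell types moved in the same comparison. The mean of the epithelial markers lay between 8.17 and 8.19 in the control arrays at 24 h, against 8.28 to 8.37 at 1 h, with KRT8 and KRT18 lower and ITGA6 higher. The mean of the immune markers lay between 5.80 and 5.87 at 24 h, against 5.90 to 6.04 at 1 h, with CD14 lower, and of the ciliated markers TUBB4B was lower. Their part in the change of the mitosis genes was not tested.

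The change over time was also present in cells with particles. In these 4 comparisons, chosen after the change of the controls was seen, 14 members rose and 1 fell with MWCNT at 10 ug/ml (background 25.8% called, 16% higher and 9.83% lower). With MWCNT at 100 ug/ml 15 rose and 2 fell (28.3%, 18.8% and 9.55%), in all 17, and 11 without the first MWCNT array at 1 h. With TiO2 at 10 ug/ml 20 rose and 0 fell (27.6%, 14.5% and 13.1%), and at 100 ug/ml 22 rose and 1 fell (32.6%, 17.8% and 14.8%). The 5 comparisons of 24 h with 1 h, controls included, share no arrays.

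The members called higher in all 5 numbered 11 (29.7%), against 7.9% of all genes. They were AURKB, MELK, NDC80, ZWINT, NUSAP1, KIF4A, PRC1, BIRC5, TOP2A, NCAPG and MKI67. In 10 members (27%, against 5.88% of all genes), all 15 arrays at 24 h lay above all 15 arrays at 1 h, and CDK1 was among these. The changes of NCAPG over time were 0.65 in control cells, 0.51 and 0.60 with 10 and 100 ug/ml MWCNT, and 0.45 and 0.44 with 10 and 100 ug/ml TiO2. Those of AURKB were 0.35, 0.47, 0.51, 0.48 and 0.39 in the same order.

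Other members were not called higher in any of these comparisons. CDC20, UBE2C, PTTG1, AURKA, PLK1, CENPA, TTK and CENPE were called in neither direction in all 5, and CCNB1 and KIF23 were called only as lower. CCNB1 fell with MWCNT at 100 ug/ml, by 0.19 ± 0.06 (limma adjusted p = 0.0198), with 11.88, 11.78 and 11.80 at 24 h against 12.04, 11.98 and 12.02 at 1 h. Its other 4 differences lay between -0.14 and -0.03 and did not pass. MAD2L1, a checkpoint protein, rose with TiO2 at both doses, by 0.36 at 10 ug/ml and 0.42 at 100 ug/ml, while its differences in control cells and with MWCNT lay between 0.09 and 0.10. That contrast was not called in the test of the difference itself (limma adjusted p = 0.471 at 10 ug/ml and 0.284 at 100 ug/ml). The control arrays of MAD2L1 at 1 h also lay far apart, at 11.19, 10.57 and 10.75 (SD 0.32).

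**Figure D2:**
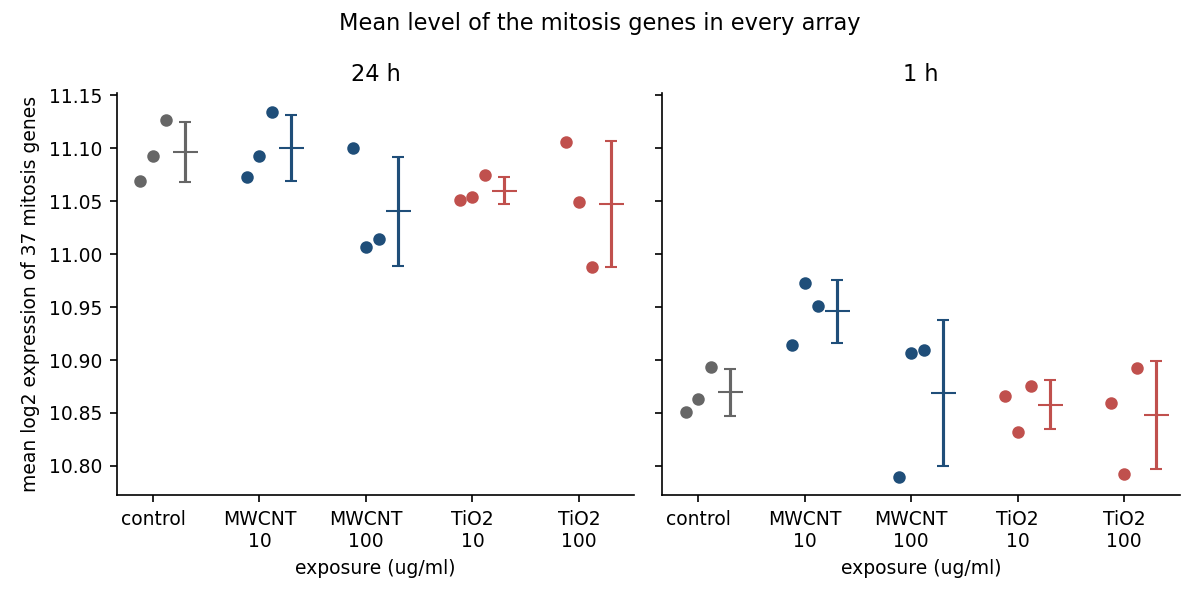
Mean log2 expression of the 37 mitosis genes in each array (points), with the mean and SD of 3 arrays beside them, at 24 h (left) and 1 h (right). All 15 arrays at 24 h, between 10.99 and 11.13, lie above all 15 arrays at 1 h, between 10.79 and 10.97.

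The mean of the 37 members summarised this, as a description without a test. At 1 h it was 10.87 ± 0.02 in control cells, 10.95 ± 0.03 and 10.87 ± 0.07 with 10 and 100 ug/ml MWCNT, and 10.86 ± 0.02 and 10.85 ± 0.05 with 10 and 100 ug/ml TiO2 (SD, n = 3 each). At 24 h it was 11.10 ± 0.03 in control cells, 11.10 ± 0.03 and 11.04 ± 0.05 with MWCNT, and 11.06 ± 0.01 and 11.05 ± 0.06 with TiO2. Every group at 24 h lay above every group at 1 h. At 1 h the 3 arrays with MWCNT at 10 ug/ml, at 10.9141, 10.9731 and 10.9512, stood above all other arrays of that time, of which the highest was at 10.9099.

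Few mitosis genes differed between cells with particles and the controls of the same time. At 1 h, 1 member of 37 was called with MWCNT and likewise with TiO2 at the higher dose, and it was KIF23 in both. The background was 1.7% called with MWCNT (1.26% higher, 0.435% lower) and 2.12% with TiO2 (1.74% higher, 0.385% lower), so 2.7% of the members is near it. KIF23 had 10.69, 10.93 and 10.88 with MWCNT at 100 ug/ml and 10.83, 10.76 and 10.85 with TiO2 at 100 ug/ml, against 10.53, 10.44 and 10.49 in the shared control cells. All 6 exposed arrays lay above the 3 control arrays. The differences were 0.35 ± 0.08 (limma adjusted p = 0.0194) and 0.33 ± 0.08 (limma adjusted p = 0.0216).

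At 10 ug/ml and 1 h no member passed, where the background was 0.0669% with MWCNT (0.0418% higher, 0.0251% lower) and 0.711% with TiO2 (0.702% higher, 0.00836% lower). At an unadjusted p under 0.05 there were 7 members with MWCNT and 1 with TiO2. KIF23 had 10.62, 10.87 and 10.76 with MWCNT at 10 ug/ml, above the controls in all 3 arrays (difference 0.26 ± 0.08, limma adjusted p = 0.25), and 10.67, 10.48 and 10.64 with TiO2 at 10 ug/ml, which overlapped them (0.11 ± 0.08, limma adjusted p = 0.84). By 24 h the KIF23 means were 10.49, 10.49, 10.38, 10.41 and 10.51 in control cells, MWCNT at 10 and 100 ug/ml and TiO2 at 10 and 100 ug/ml, and none differed from control beyond the test. Over time KIF23 fell by 0.26 ± 0.08 with MWCNT at 10 ug/ml, by 0.45 ± 0.08 at 100 ug/ml and by 0.31 ± 0.08 with TiO2 at 100 ug/ml, and it differed by -0.19 ± 0.08 with TiO2 at 10 ug/ml (limma adjusted p = 0.0798). The difference between its effect at 24 h and at 1 h was -0.45 ± 0.11 with MWCNT at 100 ug/ml and missed the threshold (limma adjusted p = 0.0721).

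The KIF23 calls rested on few arrays. With MWCNT the call held in 8 of 12 alternative settings and with TiO2 in 6 of 12, with adjusted p up to 0.136 and 0.11, and the sign never turned. With MWCNT it was lost without the second control array (0.32) or without the second (0.30) or the third (0.33) MWCNT array. With TiO2 it was lost without the first (0.35), the second (0.31) or the third (0.33) control array, or without the first (0.32) or the third (0.31) TiO2 array. Outside the members, WEE1, the kinase that holds CDK1 inactive, was higher at 1 h with both particles at 100 ug/ml. The differences were 0.53 ± 0.05 with MWCNT and 0.38 ± 0.05 with TiO2. Its other probe set gave 0.56 and 0.44. Over all genes 1.26% and 1.74% were called higher in these comparisons. WEE1 is named as a single gene, and a link with KIF23 was not tested.

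**Figure D3:**
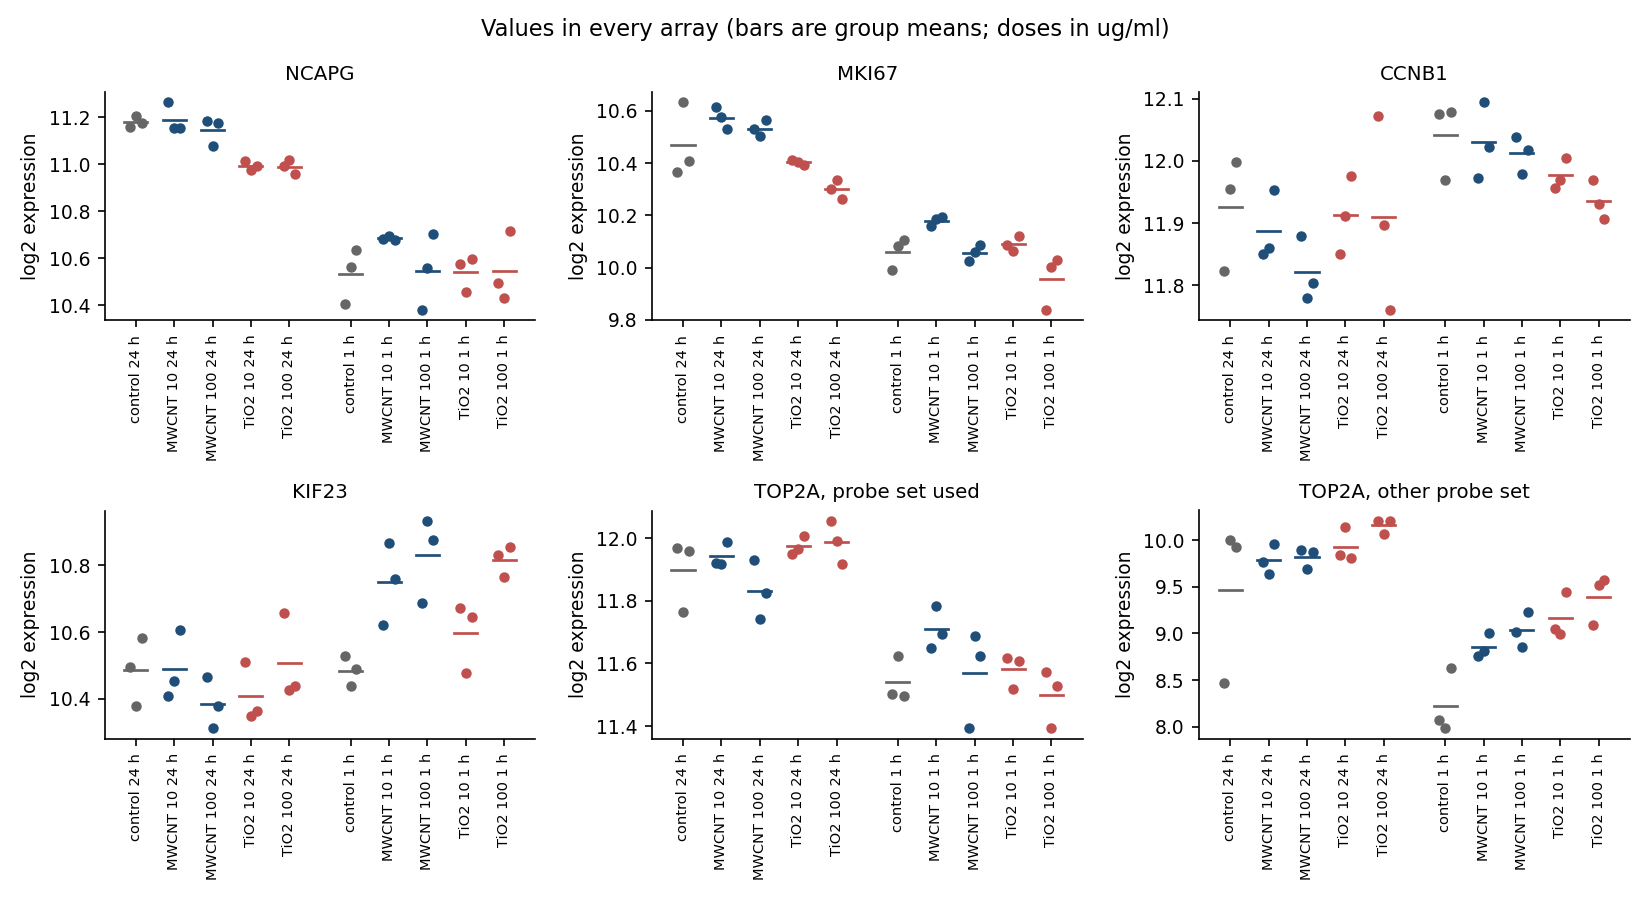
Log2 expression in every array for NCAPG, MKI67, CCNB1, KIF23 and both probe sets of TOP2A, with 24 h groups left of 1 h groups in each panel. Points are arrays and bars are group means, in grey for control, blue for MWCNT and red for TiO2. KIF23 is high in the 1 h groups with 100 ug/ml of either particle, and the TOP2A panels differ at 1 h.

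At 24 h, MWCNT called 0 members at either dose, and also 0 of all 11963 genes (limma, background 0% at both doses). At an unadjusted p under 0.05 there were 0 members at 10 ug/ml and 4 at 100 ug/ml. The largest difference at 100 ug/ml was that of DLGAP5, a spindle protein, at -0.22 ± 0.12 (limma adjusted p = 0.923). When arrays were weighted by their spread, 8 members were called lower with MWCNT at 100 ug/ml, in a fit that gave the third control array a weight of 4.87 against 0.31 and 0.41 for the other two.

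With TiO2 at 10 ug/ml and 24 h, 1 member fell, where the background was 6.05% called, 2.55% higher and 3.5% lower. It was MELK, with 12.04, 11.94 and 11.96 against 12.15, 12.16 and 12.05 in control cells, a difference of -0.14 ± 0.04 (limma adjusted p = 0.0491). The lowest control array and the highest exposed array lay close together without overlap. The call held in 3 of 12 alternative settings, with limma adjusted p between 0.0291 and 0.3. It was lost without the first (-0.13) or the second (-0.12) control array, or without any 1 of the 3 TiO2 arrays (-0.17, -0.12 and -0.13). The replicate block also ended it (limma adjusted p = 0.0567), as did cyclic loess, array weights and a fit of the compared groups alone. Beside it, the mean of the secretory markers lay between 5.86 and 5.90 with TiO2 at 10 ug/ml, against 5.61 to 5.74 in control cells, with 0 of 3 above the table median. That of the epithelial markers lay between 8.08 and 8.17, against 8.17 to 8.19, with CDH1 lower. The part of these markers was not tested.

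With TiO2 at 100 ug/ml and 24 h, 3 of 37 members fell (8.11%), where the background was 13.2% called, 4.3% higher and 8.89% lower. The share is thus near that of all genes, but the count depended on the setting. With the filter on dim genes 7 members fell, against 0 when the fit held the compared groups alone and 0 after cyclic loess. With array weights 10 fell, in a fit that weighted the third control array 4.87, against 0.31 and 0.41 for the first and second. MKI67 had 10.30, 10.34 and 10.26, against 10.37, 10.63 and 10.41 in control cells, a difference of -0.17 ± 0.06 (limma adjusted p = 0.0457). KIF4A had 10.65, 10.67 and 10.71, against 10.76, 10.91 and 10.84, a difference of -0.16 ± 0.05 (limma adjusted p = 0.026). MELK had 11.93, 11.98 and 12.03, against 12.15, 12.16 and 12.05, a difference of -0.14 ± 0.04 (limma adjusted p = 0.0344).

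In all 3 the exposed arrays lay below the control arrays by a small margin. The other 3 probe sets of MKI67 differed by -0.06, -0.05 and -0.12. NCAPG also had all arrays lower, at 10.99, 11.02 and 10.96 against 11.16, 11.21 and 11.18, a difference of -0.19 ± 0.07 that did not pass (limma adjusted p = 0.0733). TOP2A, CDK1 and PLK1 were not called.

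These 3 calls were lost without the second control array at 24 h, where MKI67 differed by -0.09, KIF4A by -0.12 and MELK by -0.12. They were lost also without the first TiO2 array (-0.17, -0.15 and -0.11, in the same order) or the second (-0.19, -0.16 and -0.14). In addition MKI67 was lost without the third TiO2 array (-0.15), KIF4A without the third control array (-0.16) and MELK without the first control array (-0.12). Of 12 alternative settings, the call held in 5 for MKI67, 6 for KIF4A and 5 for MELK. All 3 were lost after cyclic loess normalization, where the median of the members was 0.0005 against -0.06 in the values as deposited. In the same comparison 5 of 8 epithelial markers were lower and their mean lay between 7.84 and 7.98, against 8.17 to 8.19 in control cells. The fibroblast markers lay between 5.75 and 5.80, against 5.65 to 5.67, with DCN and COL1A1 higher. The secretory markers lay between 5.87 and 6.05, against 5.61 to 5.74, with MUC5B higher, and the endothelial markers between 5.03 and 5.12, against 4.87 to 4.94, with none called. In both lists 0 of 3 genes were above the table median. The part of these markers in the change of the mitosis genes was not tested.

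Between the particles at the same dose and time, 1 member passed in 4 comparisons. MKI67 had 10.53, 10.50 and 10.56 with MWCNT at 100 ug/ml and 24 h, against 10.30, 10.34 and 10.26 with TiO2, without overlap. The difference was 0.23 ± 0.06 (limma adjusted p = 0.00986), where the background was 12.2% called, 7.7% higher and 4.55% lower. The call was lost after cyclic loess (0.17, limma adjusted p = 0.0531) and with the mean of all probe sets (0.14, limma adjusted p = 0.105). The other 3 probe sets of MKI67 gave 0.14, 0.08 and 0.10, none of which passed over all probe sets. At 10 ug/ml and 24 h MKI67 differed by 0.17 ± 0.06 (limma adjusted p = 0.0719; background 4.88%, 2.05% higher and 2.83% lower), and 3 members had an unadjusted p under 0.05. At 1 h no member passed (limma; background 0.00836% at 10 ug/ml and 0.0167% at 100 ug/ml), with 4 and 0 members at an unadjusted p under 0.05.

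Between 100 and 10 ug/ml of one particle no member passed in the 4 comparisons (limma), where the background was 0.635% with MWCNT (0.56% higher, 0.0752% lower) and 0.293% with TiO2 (0.267% higher, 0.0251% lower) at 1 h. At 24 h it was 0% with MWCNT and 0.986% with TiO2 (0.669% higher, 0.318% lower). At an unadjusted p under 0.05 there were 2 and 2 members at 1 h, and 0 and 1 at 24 h, in the same order. The largest difference between doses over all members was that of TTK, -0.22 ± 0.11 with MWCNT at 1 h, with an interval of -0.45 to 0.0086 (limma adjusted p = 0.772). The effect at 24 h minus the effect at 1 h was called for 0 members with any of the 4 exposures, where the background was 0% and 0.669% with MWCNT at 10 and 100 ug/ml (0.117% higher and 0.552% lower at the higher dose) and 0.0167% and 2.2% with TiO2 (1% higher and 1.2% lower at the higher dose). At an unadjusted p under 0.05 there were 2, 2, 1 and 3 members in that order. For the probe sets used, in all 8 comparisons with controls the 95% interval of each of the 37 members lay within 1.5-fold in either direction, with a median half-width of 0.13 (log2). This bound does not cover other probe sets: that of TOP2A differed by 1.17 ± 0.25 with TiO2 at 100 ug/ml and 1 h (limma adjusted p = 0.0074 over all probe sets), and by 0.63, 0.81 and 0.94 with MWCNT at 10 and 100 ug/ml and TiO2 at 10 ug/ml, which did not pass.

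**Figure D4:**
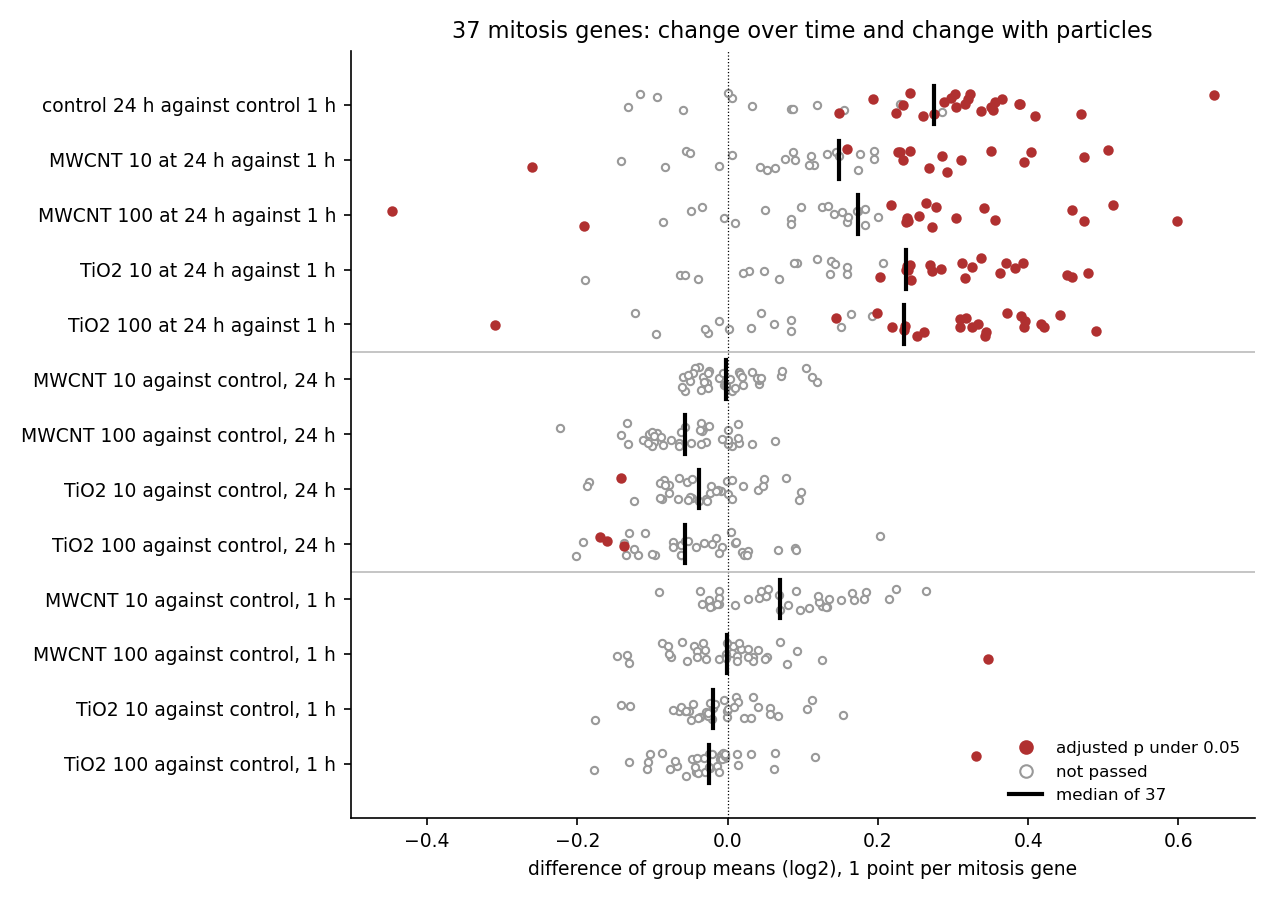
Differences of group means (log2) of the 37 mitosis genes in 5 comparisons of 24 h with 1 h (top), and in the 8 comparisons of particles with control at 24 h (middle) and 1 h (bottom). Each point is 1 gene, filled red where adjusted p was under 0.05, and black bars are medians. The medians over time lie between 0.15 and 0.27, and those with particles between -0.06 and 0.07.

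Lists of other cell cycle genes were drawn up from general knowledge, with earlier results of these data known. They were read in the same control comparison over time. In it 19.3% of all genes were called higher and 12.4% lower. Of 35 measured genes of the kinetochore and spindle beyond the members, 22 rose and 1 fell, among them the kinesins KIF15 (0.77 ± 0.08) and KIF18B (0.57 ± 0.05) and the kinetochore protein SKA1 (0.53 ± 0.07). Of 16 condensin and cohesin genes 12 rose and 0 fell, led by STAG1, a cohesin subunit (0.55 ± 0.07). Of 39 DNA replication genes 22 rose and 1 fell, led by POLA1, a polymerase subunit (0.59 ± 0.06), and CDT1, a licensing factor (0.55 ± 0.09). When the fit held only the control arrays, 12 replication genes were called, against 23 in all.

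Regulators of the family were read in the same way, against the same 19.3% higher and 12.4% lower over all genes. Of 15 genes of entry into mitosis and its transcription 7 rose and 1 fell (5 in all when the fit held only the control arrays), among them FOXM1, a transcription factor of mitosis genes, at 11.04 ± 0.05 against 10.57 ± 0.01 (SD, n = 3 each; difference 0.46 ± 0.05). E2F8 rose by 0.73 ± 0.08, while E2F1 differed by -0.10 ± 0.08 and did not pass. Of 10 genes of the anaphase promoting complex and its regulators, 4 rose, led by the inhibitor FBXO5 (0.59 ± 0.08), and 0 fell.

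Genes that restrain the cell cycle were divided. Of 11 CDK inhibitors and growth arrest genes 6 fell (54.5%, against 12.4% of all genes) and 2 rose (18.2%, against 19.3%), with a median difference of -0.44. CDKN1A, the CDK inhibitor p21, averaged 10.92 ± 0.06 at 24 h and 11.61 ± 0.05 at 1 h (SD, n = 3 each), a difference of -0.69 ± 0.06 (limma adjusted p = 1.61e-09). GADD45B fell by 1.27 ± 0.07 on the log2 scale and CDKN1C by 0.63 ± 0.06. Of 13 genes of G1 cyclins, CDKs and the RB family 2 rose (15.4%) and 1 fell (7.69%), neither share above that of all genes. The one that fell was CCND1, cyclin D1, at 4.96 ± 0.32 against 7.78 ± 0.49, a difference of -2.82 ± 0.24, while its other probe set gave 5.36 and 5.83.

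**Figure D5:**
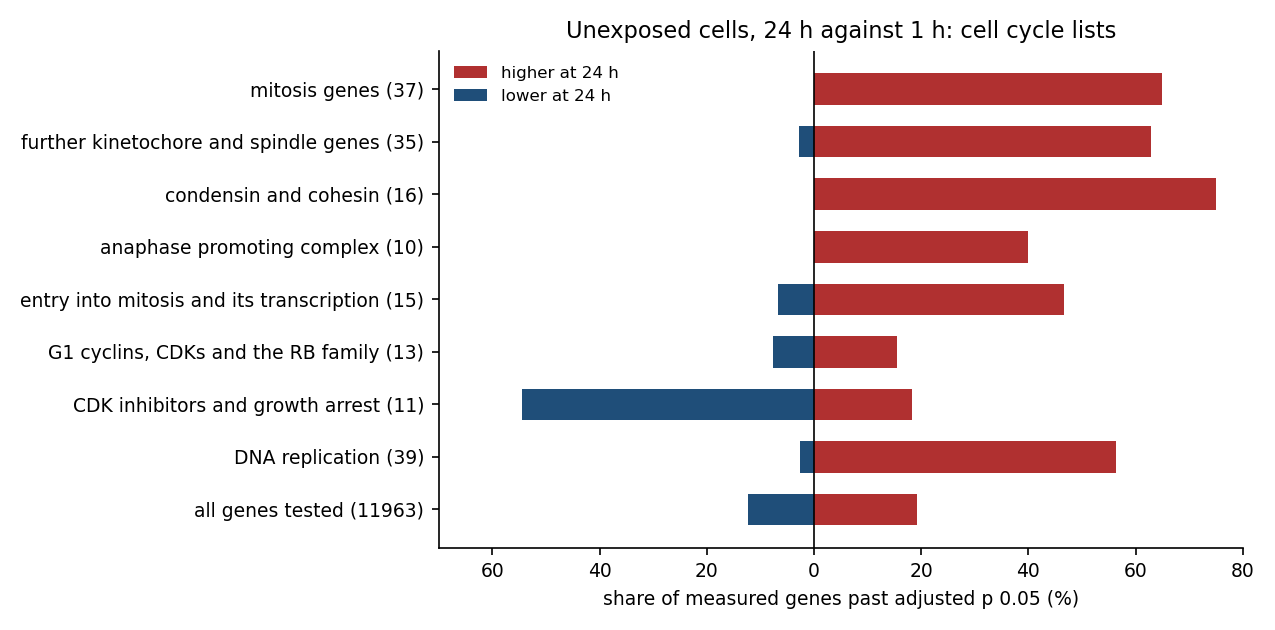
Share of measured genes that passed an adjusted p of 0.05 in control cells at 24 h against 1 h, for the mitosis genes, 7 other cell cycle lists and all 11963 genes, with higher to the right in red and lower to the left in blue. Numbers of measured genes stand in parentheses. The mitosis genes reach 64.9% higher against 19.3% of all genes, and the CDK inhibitors 54.5% lower against 12.4%.

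With TiO2 at 100 ug/ml and 24 h, 5 of the same lists were set against a background of 8.89% lower. Among entry and transcription genes 4 of 15 fell (26.7%), namely LIN37, MYBL2, CDC25C and FOXM1 (-0.16 ± 0.05). Of the further kinetochore and spindle genes 3 of 35 fell (8.57%), of the replication genes 3 of 39 (7.69%), of condensin and cohesin 2 of 16 (12.5%) and of the anaphase promoting complex 1 of 10, shares near the background, and none rose in these 5 lists. CDKN1A and CDKN1C are named as single genes of the CDK inhibitor list, whose shares are not given here. CDKN1A rose by 0.18 ± 0.06 (limma adjusted p = 0.0397), where 4.3% of all genes were called higher, and CDKN1C fell by 0.41 ± 0.06. With MWCNT at 100 ug/ml and 24 h these lists held 0 calls, as did the whole table.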

How the data were processed

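RNA of 30 SAE cell cultures was hybridised to Affymetrix arrays. The deposited values are log2 expression per probe set, made by the authors with RMA, per the submitters' processing notes (version not given in the sources used here). RMA corrects background, brings the arrays to a common distribution and summarises probes, so a shift shared by all genes would not be seen. Of 22277 probe sets, 62 were controls, and the platform annotation gave 19064 one symbol, 1043 several and 2108 none. Only those with 1 symbol were used, per gene the one with the highest mean, for 11963 genes. The 37 members had 59 probe sets.

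Group means of all 10 groups were estimated gene by gene with limma 3.58.1 (R 4.3.3), with shrunken variances, two-sided tests and Benjamini-Hochberg adjustment over all genes within a comparison, at 0.05. Errors after ± are standard errors for differences and SD for means. For 3 arrays against 3 the smallest exact permutation p is 0.1, so the calls rest on limma. The script was tested on simulated data. Promoter letters were counted in Python 3.11.15 with pandas 2.3.3, and figures drawn with matplotlib 3.10.9 and numpy 2.4.6. The number of arrays limits the precision.

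The members, lists and comparisons were chosen with earlier results of these data known. The 4 comparisons of exposed groups over time and the look at other probe sets of members and regulators were added after the data were examined. Named members are up to 10 called per direction, or up to 3 with the largest difference where none passed, with MKI67, TOP2A, CDK1, CCNB1, PLK1 and AURKA allowed anywhere. In the control comparison over time all 37 are given. Of other lists up to 4 called genes are named, with CDKN1A, CCND1, FOXM1 and E2F1 allowed anywhere. Alternatives were a filter on dim genes, cyclic loess, a replicate block, array weights, the mean of a gene's probe sets, only the compared groups in the fit, and each array left out.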

Additional observations from a re-analysis of the deposited data

Results flagged for a closer look

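One probe set of a member, not used for the gene, gave a signal above the controls. TOP2A is represented by a probe set that differed by -0.04 ± 0.07 (SE) between TiO2 at 100 ug/ml and control cells at 1 h. Its other probe set, which has the lower mean, had 9.10, 9.52 and 9.57 with TiO2 at 100 ug/ml, against 8.07, 7.98 and 8.63 in control cells at 1 h. The difference was 1.17 (limma adjusted p = 0.0074 over 22215 probe sets), and it was the 1 call among 22 other probe sets of members in 8 comparisons with controls. At 1 h this probe set averaged 8.22 in control cells, 8.86 and 9.03 with MWCNT at 10 and 100 ug/ml, and 9.16 and 9.40 with TiO2 at 10 and 100 ug/ml. At 24 h it averaged 9.47 in control cells (SD 0.86, with 1 array at 8.47 and the others at 10.00 and 9.93), 9.79 and 9.82 with MWCNT, and 9.93 and 10.16 with TiO2. The cause of the difference between the probe sets was not tested.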

How the results depend on the processing

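No called member changed its sign under any alternative. The counts of called members moved as follows. MWCNT at 100 ug/ml against control at 1 h gave 1 in the values as reported, 0 with only the compared groups, and 0 to 1 without single arrays. TiO2 at 100 ug/ml at 1 h gave 1, but 2 with the filter on dim genes, 2 with array weights, 2 with the mean of probe sets, 0 with only the compared groups and 0 to 2 without single arrays. At 24 h, MWCNT at 100 ug/ml gave 0, but 8 with array weights. TiO2 at 10 ug/ml gave 1, but 0 after cyclic loess, 3 with array weights, 0 with only the compared groups and 0 to 1 without single arrays. TiO2 at 100 ug/ml gave 3, but 7 with the filter, 0 after cyclic loess, 10 with array weights, 0 with only the compared groups and 0 to 3 without single arrays. MWCNT against TiO2 at 24 h gave 0 at 10 ug/ml, but 1 with array weights, and 1 at 100 ug/ml, but 2 with the filter, 0 after cyclic loess, 7 with array weights, 0 with the mean of probe sets and 1 to 2 without single arrays. TiO2 at 100 against 10 ug/ml at 1 h gave 0, but 1 with array weights. The effect at 24 h minus 1 h gave 0 for MWCNT at 100 ug/ml, but 1 with the filter, 1 after cyclic loess, 1 with array weights and 0 to 1 without single arrays, and 0 for TiO2 at 100 ug/ml, but 1 with array weights. The control over time gave 24, and 20 to 24 without single arrays. The exposed groups over time gave 15 (11 to 13 without single arrays) and 17 (11 to 19, the lowest without the first 1 h array) with MWCNT at 10 and 100 ug/ml, and 20 (16 to 19) and 23 (19 to 24) with TiO2. With fewer samples or fewer groups the test has less information, and estimates moved as well. The causes of these moves in the counts were not tested. The labels do not say whether equal replicate numbers mark paired samples. Deviations of same-numbered arrays from their group means correlated between -0.248 and 0.33, over 0.1 in 14 of 63 pairs. With 3 arrays per group this cannot exclude pairing. The replicate block lowered the count for TiO2 at 10 ug/ml at 24 h to 0 and kept the other 24 counts within 1.5 times.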
